A study of Mus musculus with 14 samples.

Results

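Hippocampal RNA of GSDMD-KO and wildtype (WT) mice that were kept in room air (RA) was compared, to ask how the genotypes differed without hyperoxia. The members were chosen by label: the libraries of the 3 KO-RA mice and the 4 WT-RA mice, 7 of the 14 libraries in the series, with 1 library per mouse. The other 7 mice (4 WT-O2 and 3 KO-O2) were kept in hyperoxia at 85% O2 from postnatal day 1 to day 14 and were used for the shared estimate of spread and for a side-by-side reading at the end. All hippocampi were taken on postnatal day 15 from mice labelled C57/BL6, the sex was not given in the labels, and the paper's methods describe both genotypes as pups of heterozygous matings. Every KO mouse was homozygous for a small CRISPR/Cas9-derived deletion in the fifth exon of Gsdmd, carried in all tissues, on a C57BL/6N line. The WT mice are numbered GSD398 to GSD408 and the KO mice GSD489 to GSD496, so genotype and range of mouse numbers cannot be told apart. Values per mouse are always listed in the order GSD398, GSD399, GSD400 and GSD401 for WT-RA and GSD489, GSD490 and GSD496 for KO-RA.

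Gasdermin D is the pore-forming protein of pyroptosis, an inflammatory form of cell death. Inflammasomes activate inflammatory caspases, caspase-1 among them, which cut gasdermin D. Its amino-terminal part then inserts into the plasma membrane, and mature interleukin-1β and interleukin-18 leave through the pore. The hippocampus is a cortical structure built of the granule cells of the dentate gyrus and the pyramidal cells of fields CA1 to CA3, and in the mouse it is bordered by the thalamus, the septum, the overlying white matter and the neocortex. At the end of the second postnatal week, granule cells are still being added and oligodendrocytes are laying down myelin.

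The exon that carries the deletion is shown because it locates the change that separates the genotypes. In the reference transcript Gsdmd-201 it is exon 5 of 11 and lies within the coding sequence on the plus strand at chr15:75865423-75865525 (GENCODE annotation of build GRCm38, 103 bases). The deposited counts were made on GRCm39, so this coordinate is given for orientation only.
Gsdmd exon 5: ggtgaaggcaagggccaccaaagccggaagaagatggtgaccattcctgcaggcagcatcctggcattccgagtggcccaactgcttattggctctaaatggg

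Gsdmd (ENSMUSG00000022575) was read first, as the check of the labels. Its level was 1.60, 1.69, 1.80 and 1.47 CPM (estimated counts scaled to a common library size with edgeR's TMM factors) in the 4 WT-RA mice and 0.817, 1.47 and 1.28 CPM in the 3 KO-RA mice. In estimated counts these values were 44, 48, 51 and 41 against 22, 42 and 36, so the highest KO-RA mouse had 1 count more than the lowest WT-RA mouse. Mouse GSD489 had the lowest value of the 7. The log2 fold change of KO-RA against WT-RA was -0.46 ± 0.20 (± SE, here and for every fold change below), with q = 0.168. The q-values come from edgeR's quasi-likelihood F-test (two-sided), adjusted by the method of Benjamini and Hochberg over the 16637 genes tested. The difference did not pass the threshold for a call, which was the study's: a fold change of at least 1.25, p below 0.05 and q below 0.1. Since a gene-level value adds up every transcript, with or without the deleted bases, it is no direct test of the genotype. The paper reports that GSDMD protein was not detected in KO hippocampal sections. By qRT-PCR, as data not shown, it found no measurable Gsdmd transcript in KO brains. The KO-RA libraries here held 22 to 42 estimated counts, and the reason for this difference was not tested. Among the 30 nearest tested genes, on both sides of Gsdmd, 3 were called, a share near the 10.4% of all genes tested. They are named after their values were seen. Naprt, the next gene and an enzyme of NAD synthesis, was higher (log2 fold change 0.49 ± 0.13, q = 0.0293). Scrib, a cell polarity scaffold, was lower (log2 fold change -0.35 ± 0.10, q = 0.0343), as was the cytoskeletal linker gene Plec (log2 fold change -0.37 ± 0.07, q = 0.00565). In the fits that left out 1 mouse, Scrib lost the call in 3 and Naprt in 1. On chromosome 15 as a whole, 11.7% of the tested genes were called.

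The room air libraries summed to between 27548199 and 28257496 estimated counts, and no 2 libraries of the same group agreed within sampling noise. Markers of tissue next to the hippocampus differed between mice of the same group. Summed over 10 choroid plexus markers, the level was 46.7 CPM in KO-RA mouse GSD489 and between 954 and 3361 CPM in the other 6. The defining gene of that list, the transthyretin gene Ttr, was at 2318, 1295, 889.8 and 1899 CPM in WT-RA and 26.7, 3177 and 3040.1 CPM in KO-RA. Summed over 14 thalamic markers, WT-RA mouse GSD398 was at 1303 CPM and WT-RA mouse GSD400 at 235 CPM, the latter within the KO-RA range of 223 to 265 CPM. Genes of the Y chromosome were high in 1 of the 4 WT-RA and 1 of the 3 KO-RA mice (Ddx3y at 46.7 and 37.5 CPM against at most 0.565 CPM in the other 5). The hyperoxia mouse GSD408 is called hyperoxia in its title and room air in its treatment field. It was placed in WT-O2 by its title, and 1821 genes were called with it counted in WT-RA. In bulk tissue, fewer cells of a type and less RNA per cell cannot be told apart, and this holds for every marker list below.

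Of the 16637 genes tested, 1738 (10.4%) were called in KO-RA vs WT-RA, with 624 (3.75%) higher and 1114 (6.7%) lower in KO-RA. The falls were larger than the rises. The median log2 fold change was 0.52 among the genes called higher and -0.71 among those called lower, and 84 genes were higher by at least 2-fold against 352 that were lower. The median over all genes tested was -0.01. For 3258 genes (19.6%) no KO-RA mouse overlapped a WT-RA mouse, 8.62% higher and 11% lower in KO-RA, and these included 1487 of the 1738 called genes. Leaving out KO-RA mouse GSD489 lowered the count to 1076 genes, and adding the scores of the striatal and thalamic marker lists below as covariates lowered it to 23. The striatal score was at least 0.14 in every WT mouse and at most -0.53 in every KO mouse. It therefore nearly repeats the genotype, and calls can be lost for this reason alone.

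**Figure D1:**
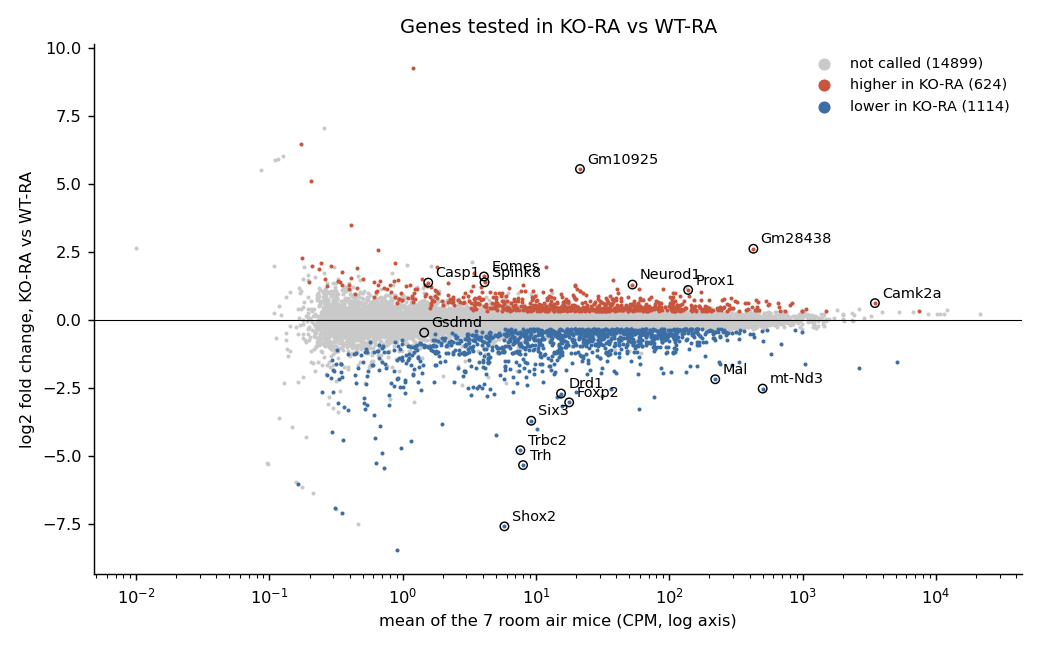
Log2 fold change of KO-RA against WT-RA (vertical axis) against mean expression in the 7 room air mice (CPM, log axis) for the 16637 genes tested, 1 point per gene. The 624 genes called higher (red) mostly lie within 1 log2 unit of zero, whereas the 1114 called lower (blue) reach further, as for Trh at -5.34.

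Genes of the hippocampal formation itself were mostly higher in KO-RA. Of 10 dentate granule cell markers, 7 were higher and 0 lower, with a median log2 fold change of 0.81. Prox1, the transcription factor that maintains granule cell identity, was at 149.9, 109, 74.6 and 35.8 CPM in WT-RA and 245, 170.0 and 183 CPM in KO-RA (log2 fold change 1.11 ± 0.33, q = 0.0468). All KO-RA mice were above all WT-RA mice, and the WT-RA mice themselves were widely spread, with GSD401 lowest. The same order of mice was seen for Dsp, which encodes the desmosomal protein desmoplakin, at 19.3, 15.7, 9.79 and 3.95 CPM in WT-RA and 34.7, 26.3 and 28.4 CPM in KO-RA (log2 fold change 1.29 ± 0.37, q = 0.0379). For Tdo2, which encodes a tryptophan-degrading enzyme, the values were 3.02, 2.25, 1.80 and 1.29 CPM in WT-RA and 5.83, 4.65 and 4.52 CPM in KO-RA (log2 fold change 1.26 ± 0.25, q = 0.00512). C1ql2, a secreted synaptic organizer of the mossy fibres, was at 21.97, 16.9, 9.51 and 9.11 CPM in WT-RA and 36.1, 28.7 and 26.9 CPM in KO-RA (log2 fold change 1.09 ± 0.24, q = 0.0102), again without overlap. Lct, a granule cell marker better known as lactase, differed by 1.16 ± 0.32 (q = 0.0322). Of the 10 markers, 7 did not overlap between the groups, against 19.6% of all genes. Summed over the 10 markers, the level was 375, 363, 281 and 268 CPM in WT-RA and 635, 480 and 514 CPM in KO-RA. Without KO-RA mouse GSD489, which had the highest sum, 3 of the 10 were called higher, and a fit of the 7 room air libraries alone called 4.

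Pyramidal cell genes moved in both directions. Of 8 CA1 markers, 5 were higher and 1 was lower (median 0.57), and of 11 CA2 and CA3 markers, 5 were higher and 2 lower (median 0.10). Spink8, a marker of CA1 pyramidal cells, was at 2.73, 2.54, 1.59 and 2.83 CPM in WT-RA and 6.57, 6.05 and 6.44 CPM in KO-RA (log2 fold change 1.39 ± 0.17, q = 0.000293). The 3 KO-RA values lay close together and were more than 2-fold above the highest WT-RA value. Fibcd1, another CA1 marker that encodes a membrane protein, was at 81.03, 87.1, 59.97 and 78.8 CPM in WT-RA and 174, 154 and 136 CPM in KO-RA (log2 fold change 1.01 ± 0.14, q = 0.000547). Lefty1, a secreted antagonist of Nodal signaling, differed by 1.02 ± 0.24 (q = 0.0146) and the POU transcription factor Pou3f1 by 0.70 ± 0.24 (q = 0.0778).

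In the CA2 and CA3 list, Rgs14, which limits plasticity in CA2, was higher (log2 fold change 0.52 ± 0.10, q = 0.00512), as were the kainate receptor gene Grik4 (log2 fold change 0.58 ± 0.10, q = 0.00253) and Iyd, a deiodinase gene (log2 fold change 0.85 ± 0.21, q = 0.0179). The 2 members that fell did so without overlap, which held for 7 of the 11 markers and for 19.6% of all genes. Pcp4, a calmodulin-binding peptide of CA2 neurons that is also made in the striatum and thalamus, was at 295, 237, 206 and 251 CPM in WT-RA and 91.5, 103 and 101 CPM in KO-RA (log2 fold change -1.33 ± 0.19, q = 0.000675). Coch, which encodes the extracellular protein cochlin, was at 24.8, 22.1, 24.4 and 25.6 CPM in WT-RA and 9.43, 11.1 and 11.3 CPM in KO-RA (log2 fold change -1.19 ± 0.10, q = 1.79e-05) and had 1 of the 5 smallest p-values of the comparison. The median of this list is positive while its summed level was lower in KO-RA (371 to 422 CPM against 441 to 596 CPM) and Pcp4 makes up a large part of the sum. Without KO-RA mouse GSD489, 2 of the 11 were called higher.

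**Figure D2:**
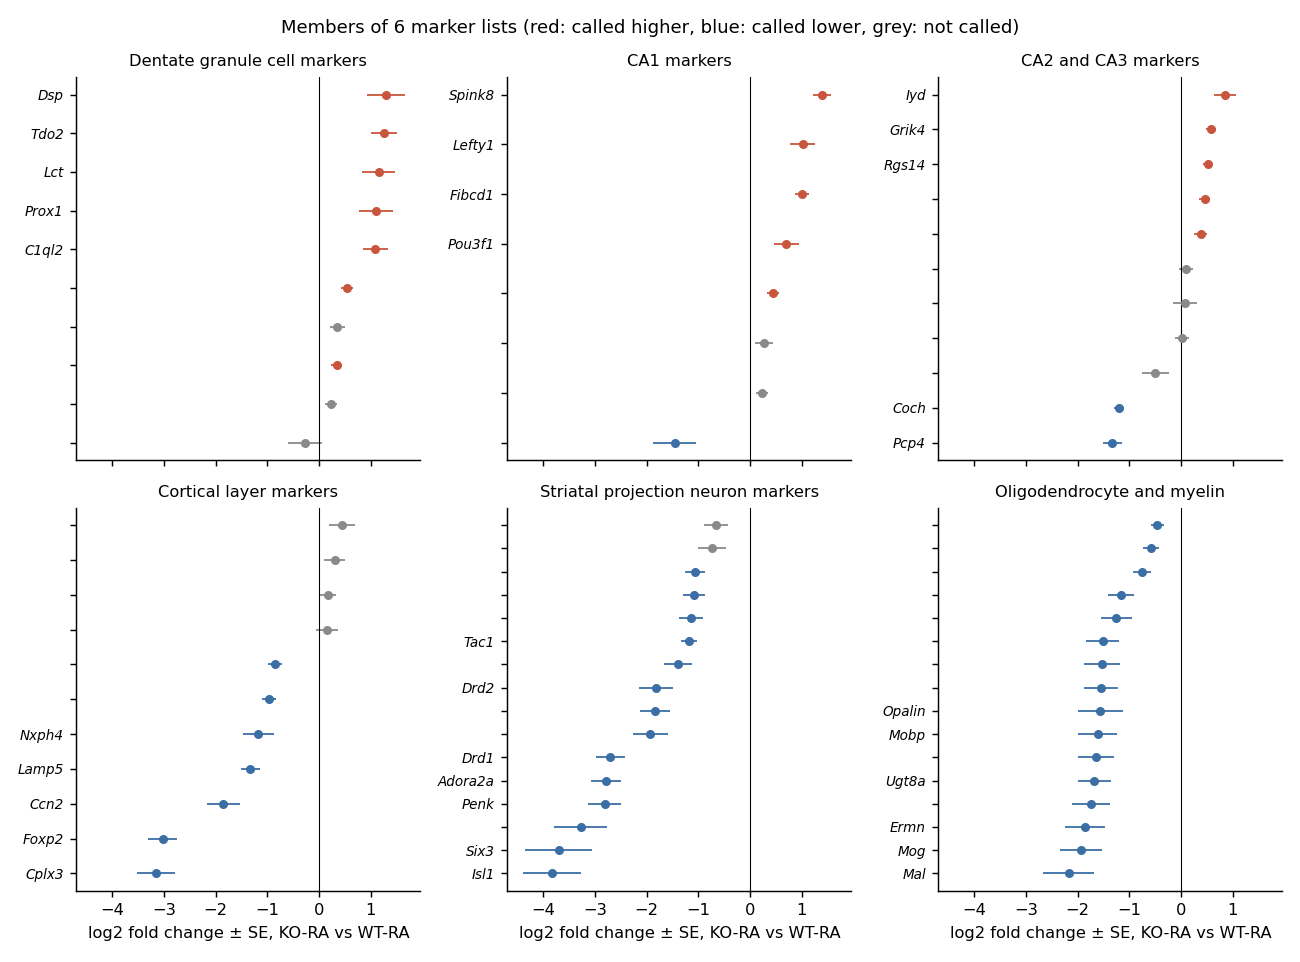
Log2 fold change of KO-RA against WT-RA with its SE (horizontal axis) for each tested member of 6 marker lists, coloured by call, with the names of the genes described in the text. The dentate list has 7 of 10 members called higher, whereas the oligodendrocyte and myelin list has 16 of 16 and the striatal list 14 of 16 called lower.

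Transcription factors of the pallium, the part of the embryonic forebrain from which hippocampus and neocortex arise, were higher in 10 of 15 cases and lower in 3 (median 0.59). Prox1 belongs to this list too. Neurod1, which drives granule neuron differentiation, was at 37.8, 39.2, 33.7 and 18.8 CPM in WT-RA and 95.2, 71.7 and 73.8 CPM in KO-RA (log2 fold change 1.31 ± 0.20, q = 0.00112). Emx2, which patterns the hippocampal primordium, was at 8.44, 10.003, 9.05 and 7.14 CPM in WT-RA and 20.7, 18.4 and 16.9 CPM in KO-RA (log2 fold change 1.11 ± 0.13, q = 0.000179). Neither gene overlapped between the groups, although Neurod1 was also picked by a rule that required this. No overlap was seen for 10 of the 15 factors, 19.6% of all genes and 1487 of the 1738 called genes. Mef2c, a regulator of cortical neuron maturation and synapse number, fell and was at 174, 303, 561 and 323 CPM in WT-RA and 111, 103 and 117 CPM in KO-RA (log2 fold change -1.63 ± 0.29, q = 0.00272). Its WT-RA values were widely spread, with mouse GSD400 highest, and this mouse was also highest in the sum of the neocortical layer markers.

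Genes of neuronal progenitors and newborn neurons were higher in 4 of 12 cases, with 0 lower (median 0.27). Eomes, the T-box factor of intermediate progenitors, was at 2.44, 2.96, 2.12 and 1.15 CPM in WT-RA and 6.54, 8.53 and 4.73 CPM in KO-RA (log2 fold change 1.61 ± 0.24, q = 0.00102). Igfbpl1, a marker of newborn granule neurons, was at 14.8, 14.4, 15.9 and 4.20 CPM in WT-RA and 32.5, 28.5 and 26.4 CPM in KO-RA (log2 fold change 1.24 ± 0.29, q = 0.0144). Hopx, which marks neural stem cells of the dentate gyrus and astrocytes, was at 24.8, 26.7, 23.4 and 25.4 CPM in WT-RA and 46.7, 43.3 and 43.7 CPM in KO-RA (log2 fold change 0.83 ± 0.08, q = 7.89e-05), with a spread within each group of a few CPM. Sox11, a factor of immature neurons, differed by 0.60 ± 0.17 (q = 0.0362). Of 12 cell cycle genes 0 were called, with log2 fold changes of -0.22 to 0.30. Cajal-Retzius markers, of cells that guide hippocampal layering, were higher in 3 of 7 cases (Ndnf 0.89, Trp73 0.72 and the reelin gene Reln 0.42).

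Markers of the striatum and of cholinergic and septal, thalamic and neocortical neurons were mostly lower in KO-RA. Of 16 striatal projection neuron markers, 14 were lower and 0 higher, with a median of -1.83, and the sums were 960, 848, 652 and 756 CPM in WT-RA against 183, 212 and 296 CPM in KO-RA. Both classes of striatal output neuron were represented. The dopamine receptor gene Drd1 of the direct pathway was at 23.6, 26.1, 22.9 and 24.03 CPM in WT-RA and 2.38, 3.01 and 5.73 CPM in KO-RA (log2 fold change -2.70 ± 0.28, q = 7.89e-05). Of the indirect pathway, the dopamine receptor gene Drd2 was at 24.9, 19.97, 13.99 and 16.3 CPM in WT-RA and 4.01, 4.48 and 7.47 CPM in KO-RA (log2 fold change -1.82 ± 0.33, q = 0.00326), the adenosine receptor gene Adora2a differed by -2.79 ± 0.29 (q = 8.49e-05) and the enkephalin gene Penk by -2.81 ± 0.32 (q = 0.000162). The homeobox genes Isl1 and Six3, which specify striatal neurons, had log2 fold changes of -3.83 ± 0.56 and -3.70 ± 0.64, with Isl1 at 0 counts in 1 KO-RA mouse. In no striatal marker named here did a KO-RA mouse reach a WT-RA mouse. Of the whole list, 14 of 16 markers did not overlap between the groups, against 19.6% of all genes. With the scores of the striatal and thalamic lists as covariates, which by their making hold these genes, 0 of the 16 were called and the estimate of Drd2 turned to 0.52.

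Of 9 cholinergic and septal markers, 7 were lower (median -2.34). Chat, which makes acetylcholine, was at 2.25, 2.22, 0.742 and 1.43 CPM in WT-RA and between 0.0371 and 0.0712 CPM in KO-RA, and the vesicular acetylcholine transporter gene Slc18a3 differed by -2.69 ± 0.62 (q = 0.0126). The KO-RA values of Chat stand for 1 or 2 estimated counts per mouse, so no fold change is given. Thalamic markers were lower in 9 of 14 cases (median -1.42) but depended on single mice. Tcf7l2, a thalamic transcription factor, was at 114, 52.4, 8.90 and 22.4 CPM in WT-RA and 6.65, 8.19 and 6.69 CPM in KO-RA (log2 fold change -2.78 ± 0.62, q = 0.0111). Here mouse GSD398 was far above the other WT-RA mice, and GSD400 was just above the KO-RA mice. Shox2, another thalamic transcription factor, was at 27.02, 7.26, 0.177 and 5.92 CPM in WT-RA and below 0.1 CPM in every KO-RA mouse, and GSD400 at 0.177 CPM was again closest to them. The homeobox gene Gbx2 was lower (q = 0.0236), with 0 to 0.21 CPM in KO-RA. The thalamic markers Tnnt1 (log2 fold change -2.74 ± 0.80, q = 0.0433) and Synpo2 (log2 fold change -2.65 ± 0.78, q = 0.0449) were lower as well. Without WT-RA mouse GSD400, 13 of the 14 thalamic markers were called lower, and without KO-RA mouse GSD489 2 of 14 were. Leaving out GSD398, GSD490 or GSD496 gave 4 or 5. Of 8 habenula markers, 3 were lower, and 0 without GSD399 or without any 1 of the KO-RA mice.

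Neocortical layer markers were lower in 7 of 11 cases (median -0.96), and 7 were called under every setting that left out a mouse. The 4 members that were not called had positive estimates of up to 0.45. Foxp2, a transcription factor of deep cortical layers that is also made in striatum and thalamus, was at 32.4, 25.7, 29.4 and 26.04 CPM in WT-RA and 1.89, 3.15 and 5.37 CPM in KO-RA (log2 fold change -3.03 ± 0.28, q = 4.32e-05). Cplx3, a complexin of the subplate, was at 13.3, 22.9, 34.1 and 30.1 CPM in WT-RA and 1.30, 3.78 and 3.34 CPM in KO-RA (log2 fold change -3.15 ± 0.37, q = 0.000197). The subplate marker Ccn2, a secreted matricellular protein, was at 18.4, 42.1, 44.3 and 41.7 CPM in WT-RA and 5.65, 11.4 and 13.4 CPM in KO-RA (log2 fold change -1.85 ± 0.31, q = 0.00205). Lamp5, a membrane protein of cortical neurons, was at 29.9, 36.2, 54.7 and 35.1 CPM in WT-RA and 13.1, 15.99 and 17.4 CPM in KO-RA (log2 fold change -1.33 ± 0.19, q = 0.000614), and the neurexophilin gene Nxph4 differed by -1.17 ± 0.31 (q = 0.0263). In Cplx3, Ccn2 and Nxph4 mouse GSD398 was the lowest of the WT-RA mice, the reverse of its place in the thalamic and myelin genes. The KO-RA values of the 5 genes were below all WT-RA values, although for Nxph4 the margin was small (3.45 against 3.49 CPM). Of the whole list, 7 of 11 markers did not overlap, against 19.6% of all genes. Inhibitory interneuron markers were lower in 7 of 16 cases and higher in 0 (median -0.27), among them the vesicular GABA transporter gene Slc32a1 (log2 fold change -0.58 ± 0.12, q = 0.00861), the neuropeptide Y gene Npy (log2 fold change -0.53 ± 0.13, q = 0.0164) and the homeobox gene Dlx6 (log2 fold change -0.95 ± 0.23, q = 0.017). Without GSD489 the count was 3, and without GSD401 or GSD490 it was 4.

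**Figure D3:**
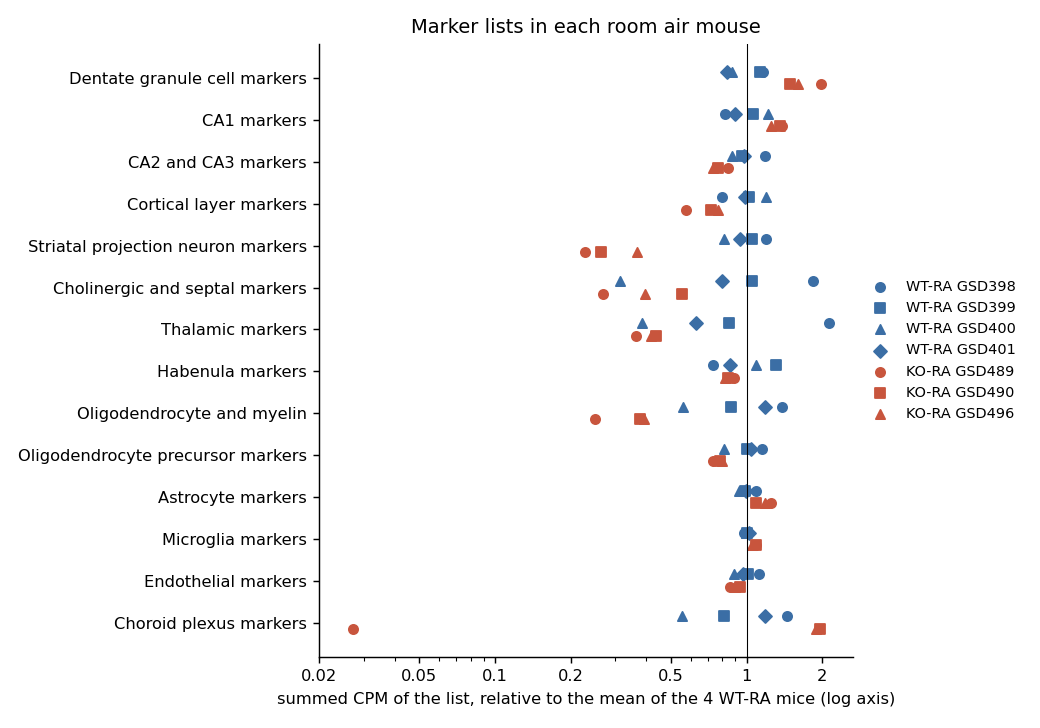
Summed CPM of 14 marker lists in each room air mouse, divided by the mean of the 4 WT-RA mice (horizontal log axis, 1 symbol per mouse, blue WT-RA and red KO-RA). The KO-RA mice lie below all WT-RA mice for the striatal and the myelin list and above them for the dentate list, 1 WT-RA mouse (GSD400) lies among the KO-RA mice for the thalamic list, and 1 KO-RA mouse (GSD489) stands far below all others for the choroid plexus list.

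Myelin genes formed the only list here of which every tested member was called in 1 direction. All 16 oligodendrocyte and myelin genes were lower in KO-RA, by a median of -1.56 on the log2 scale (range -2.18 to -0.46). Summed, they were at 21509, 13427, 8678 and 18437 CPM in WT-RA and 3859, 5852 and 6075 CPM in KO-RA, a ratio of the means of 0.339. Mog, a glycoprotein of the outer myelin surface, was at 183, 113, 62.4 and 168 CPM in WT-RA and 22.9, 36.8 and 43.8 CPM in KO-RA (log2 fold change -1.93 ± 0.41, q = 0.0082). Mal, a proteolipid of myelin membranes, had the largest fall of the list at 484, 299.8, 125 and 418 CPM in WT-RA and 46.2, 78.1 and 95.6 CPM in KO-RA (log2 fold change -2.18 ± 0.50, q = 0.0128). In both genes GSD398 was highest and GSD400 lowest among the WT-RA mice, and GSD489 was lowest of all 7. Ermn, a cytoskeletal protein of late oligodendrocytes, differed by -1.86 ± 0.39 (q = 0.00811) and Ugt8a, which makes the myelin lipid galactosylceramide, by -1.68 ± 0.32 (q = 0.00421). Of 8 markers of oligodendrocyte precursors and of cells that are starting to myelinate, 3 were lower (1 without GSD489). These were Enpp6 (log2 fold change -0.86 ± 0.19, q = 0.0105), Bcas1 (log2 fold change -0.62 ± 0.18, q = 0.044) and Gpr17 (log2 fold change -0.47 ± 0.13, q = 0.0354), which mark newly formed oligodendrocytes. In the striatal sum, too, GSD398 was highest and GSD400 lowest of the WT-RA mice. With the striatal and thalamic scores as covariates, 0 of the 16 genes were called and the estimates of Mog and Mal turned to 0.30 and 0.47. That fit cannot set region and genotype apart, since the striatal score itself separates the genotypes. The part of the regional markers in the fall of the myelin genes was not tested.

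Since the myelin genes moved together, the bases before their start sites were read from the RefSeq promoter table (build GRCm38.p6) for the core letters of sites bound by SOX factors, the family of the oligodendrocyte regulator Sox10. The letters searched were ACAAAG and ACAATG on both strands. Of the 16 genes, 10 had a window of 250 bases before a start site, and 6 of these held a match, in 7 of their 12 windows (58.3%) against 25.2% of all 32851 windows. The windows of the 3 genes with the largest fall among those with a match are shown with the matched letters in capitals (CTTTGT is ACAAAG on the other strand). They were chosen after their values were seen. The matches are a description of the sequence and are not evidence of binding.
Ermn, chr2:58052865-58053114, minus strand: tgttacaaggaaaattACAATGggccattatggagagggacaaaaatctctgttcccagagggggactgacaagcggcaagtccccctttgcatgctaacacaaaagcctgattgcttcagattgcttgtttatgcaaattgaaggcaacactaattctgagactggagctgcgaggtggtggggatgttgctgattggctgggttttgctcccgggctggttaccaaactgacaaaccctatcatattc
Mobp, chr9:120149492-120149741, plus strand: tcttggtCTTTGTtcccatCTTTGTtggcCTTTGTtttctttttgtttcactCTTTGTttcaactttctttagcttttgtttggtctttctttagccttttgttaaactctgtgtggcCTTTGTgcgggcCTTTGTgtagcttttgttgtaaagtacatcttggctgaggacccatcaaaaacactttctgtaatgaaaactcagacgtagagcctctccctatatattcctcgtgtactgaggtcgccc
Opalin, chr19:41077114-41077363, minus strand: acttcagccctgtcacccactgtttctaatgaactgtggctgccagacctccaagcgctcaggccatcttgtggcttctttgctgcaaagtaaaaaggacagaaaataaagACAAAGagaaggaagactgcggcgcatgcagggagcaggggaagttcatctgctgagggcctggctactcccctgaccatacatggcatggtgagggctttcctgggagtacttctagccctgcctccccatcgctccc

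The Mobp window, of a gene for a basic protein of compact myelin, held 6 matches and the other 2 windows held 1 each. Mobp was at 2103, 1309, 781 and 1706 CPM in WT-RA and 332, 527 and 588 CPM in KO-RA (log2 fold change -1.61 ± 0.38, q = 0.0146), and Opalin, a membrane protein of mature oligodendrocytes, was at 36.4, 22.7, 12.97 and 32.6 CPM in WT-RA and 6.57, 9.79 and 10.2 CPM in KO-RA (log2 fold change -1.56 ± 0.43, q = 0.0328). The number of matches did not order the 3 genes by their fall, since Ermn fell most. For the 15 pallial transcription factors, which mostly rose, the E-box letters CAGATG bound by factors of the Neurod family were searched in the same way. Of 13 genes with a window 4 held a match, in 8 of 21 windows (38.1%) against 14.4% of the windows read. Here too the windows of 1 gene can overlap, and no share per gene was counted over all genes.

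Other glia and vessels differed less. Of 13 astrocyte markers, 3 were higher and 0 lower, a share of 23.1% against 10.4% of all genes. The median log2 fold change was 0.14, and 4 of the 13 estimates were negative, down to -0.71. The glutamate transporter gene Slc1a3 was at 607, 562, 537 and 563 CPM in WT-RA and 825, 750.0 and 802 CPM in KO-RA (log2 fold change 0.48 ± 0.07, q = 0.000694). Gfap, the intermediate filament gene of astrocytes, was at 278, 272, 214 and 268 CPM in WT-RA and 345, 369 and 342 CPM in KO-RA (log2 fold change 0.45 ± 0.09, q = 0.00521), and Mfge8, a secreted protein that tags dying cells for uptake, was at 87.7, 89.003, 85.7 and 104.4 CPM in WT-RA and 115, 127 and 118 CPM in KO-RA (log2 fold change 0.39 ± 0.07, q = 0.00396). Of 15 microglia markers none was called (0 higher and 0 lower). All 15 estimates were positive but small, from 0.02 to 0.29, and Csf1r, the receptor on which microglia depend, was at 96.7, 94.8, 97.8 and 95.9 CPM in WT-RA and 100.3, 105 and 99.4 CPM in KO-RA (log2 fold change 0.08 ± 0.05, q = 0.422). The summed microglia level was 498 to 519 CPM in WT-RA and 537 to 556 CPM in KO-RA. None of the 13 endothelial, 9 pericyte, 10 choroid plexus or 7 ependymal markers was called, and 1 of 8 meningeal fibroblast markers was (12.5%, against 10.4% of all genes). That gene was Dcn, which encodes the matrix proteoglycan decorin, at 23.6, 19.4, 8.06 and 34.6 CPM in WT-RA and 45.2, 68.1 and 64.6 CPM in KO-RA (log2 fold change 1.47 ± 0.32, q = 0.00957).

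Of 18 tested genes of gasdermins, inflammasomes and their cytokines, 2 were higher and 0 lower, a share of 11.1% against the 10.4% of all genes. Casp1, the caspase that cuts gasdermin D and prointerleukin-1β, was at 0.836, 1.02, 0.919 and 0.897 CPM in WT-RA and 2.08, 2.66 and 2.45 CPM in KO-RA (log2 fold change 1.38 ± 0.19, q = 0.000587). Its values are low but tightly grouped, and every KO-RA mouse was at least 2-fold above every WT-RA mouse. Txnip, a stress-induced binder of thioredoxin and of NLRP3, was at 33.7, 25.7, 20.2 and 18.1 CPM in WT-RA and 29.2, 34.8 and 37.1 CPM in KO-RA (log2 fold change 0.46 ± 0.17, q = 0.0942), with overlap between the groups. It was called with all mice and lost the call in 6 of the 7 fits that left out 1 mouse. Aim2, a sensor of cytosolic DNA, was at 2.33, 3.38, 2.58 and 2.37 CPM in WT-RA and 2.12, 2.10 and 1.78 CPM in KO-RA (log2 fold change -0.41 ± 0.18, q = 0.181). The 16 genes not called ranged from -0.46 (Gsdmd itself) to 0.41. A further list held genes chosen for qRT-PCR in the same tissue. Its 7 tested members were not called in room air (0 higher and 0 lower). Bhlhe40, a circadian and stress-response repressor, was at 51.02, 49.5, 42.5 and 42.9 CPM in WT-RA and 57.7, 55.7 and 54.8 CPM in KO-RA (log2 fold change 0.27 ± 0.12, q = 0.195). Further log2 fold changes were -0.55 ± 0.27 for Ier3, -0.31 ± 0.28 for Edn1, 0.16 ± 0.09 for Il18, -0.02 ± 0.19 for Il33 and 0.35 ± 0.20 for Il1r1.

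Receptor genes moved in both directions. Of 33 amine receptors, 15 were lower and 6 higher (3 higher without GSD489), and the adrenergic receptor gene Adra1b, among the falls, was at 15.3, 12.5, 18.4 and 17.97 CPM in WT-RA and 3.08, 4.86 and 5.30 CPM in KO-RA (log2 fold change -1.86 ± 0.20, q = 0.000101). Of 25 glutamate receptor genes, 5 were lower (2 without GSD489) and 2 higher. The 2 that rose were Grik4, given above, and Gria1, an AMPA receptor subunit central to hippocampal plasticity, at 552, 592, 474 and 503 CPM in WT-RA and 925, 754 and 755 CPM in KO-RA (log2 fold change 0.61 ± 0.09, q = 0.00102). The metabotropic receptor gene Grm4 (log2 fold change -1.08 ± 0.28, q = 0.0236) and the kainate receptor gene Grik3 (log2 fold change -0.997 ± 0.15, q = 0.000872) fell. Of 17 GABA receptor genes, 3 were higher and 3 lower. Gabra5, the subunit of extrasynaptic receptors on hippocampal pyramidal cells, was at 186, 198, 216 and 178 CPM in WT-RA and 363, 307 and 300.1 CPM in KO-RA (log2 fold change 0.73 ± 0.09, q = 0.000324). Gabra2, a subunit of synaptic receptors, was at 108, 167, 84.4 and 119.8 CPM in WT-RA and 277, 215 and 241 CPM in KO-RA (log2 fold change 1.03 ± 0.17, q = 0.00159). Gabrd, a subunit of tonic receptors in granule cells and thalamus, was lower at 35.2, 24.8, 32.3 and 24.6 CPM in WT-RA and 10.5, 10.7 and 13.6 CPM in KO-RA (log2 fold change -1.33 ± 0.21, q = 0.00152). Nicotinic subunits were lower in 4 (2 without GSD489) and higher in 3 of 12 cases, with Chrna5 at 3.02, 4.68, 5.94 and 2.65 CPM in WT-RA and 9.10, 8.95 and 9.64 CPM in KO-RA (log2 fold change 1.18 ± 0.26, q = 0.011).

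Of 85 potassium channel genes 18 were lower and 5 higher, and of 37 sodium and calcium channel genes 11 were lower and 3 higher. Lower calls also outnumbered higher ones over all genes (1114 against 624), and the difference from that split was not tested. Scn4b, a sodium channel β subunit of striatal neurons, was at 86.4, 61.95, 34.8 and 42.8 CPM in WT-RA and 7.24, 6.96 and 15.1 CPM in KO-RA (log2 fold change -2.53 ± 0.49, q = 0.00498). Hcn4, a pacemaker channel of thalamic neurons, was at 31.6, 18.5, 13.4 and 16.5 CPM in WT-RA and 7.17, 9.79 and 8.43 CPM in KO-RA (log2 fold change -1.24 ± 0.25, q = 0.0063). Without GSD489 the counts were 2 higher potassium channel genes and 7 lower sodium and calcium channel genes. Regulators of G protein signaling fell in 7 of 18 cases (3 without GSD489) and rose in 1, Rgs14. Among general neuronal genes, 1 of 13 was higher and 1 lower, a share of 15.4% against 10.4% of all genes. Camk2a, the kinase of long-term potentiation, was at 2939.7, 2864, 2979 and 2528 CPM in WT-RA and 5175, 4045 and 3868 CPM in KO-RA (log2 fold change 0.63 ± 0.10, q = 0.00193), and the neurofilament gene Nefm was at 240.0, 267, 256 and 226 CPM in WT-RA and 168, 190.4 and 187 CPM in KO-RA (log2 fold change -0.44 ± 0.10, q = 0.00947).

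Of 22 Eph receptor and ephrin genes, which set topographic maps, 5 were higher and 4 lower, and 2 and 2 without GSD489. The receptor gene Epha6 was at 28.3, 32.8, 30.1 and 24.4 CPM in WT-RA and 68.5, 55.02 and 48.3 CPM in KO-RA (log2 fold change 0.99 ± 0.13, q = 0.000345) and the ligand gene Efna5 at 11.6, 13.6, 19.2 and 13.02 CPM in WT-RA and 4.79, 5.32 and 7.22 CPM in KO-RA (log2 fold change -1.31 ± 0.19, q = 0.000838). Of 49 semaphorin, plexin, Slit, Robo and netrin genes, 12 were lower and 6 higher. Sema3a, a secreted repellent, was at 10.5, 19.2, 26.2 and 24.4 CPM in WT-RA and 3.57, 5.70 and 5.94 CPM in KO-RA (log2 fold change -1.98 ± 0.27, q = 0.00055), and the transmembrane semaphorin gene Sema6a differed by -1.16 ± 0.17 (q = 0.000859). The neuropilin genes, which encode co-receptors of secreted semaphorins, were higher, with Nrp1 at 51.1, 45.7, 47.5 and 40.4 CPM in WT-RA and 85.2, 75.9 and 72.4 CPM in KO-RA (log2 fold change 0.75 ± 0.10, q = 0.000427) and Nrp2 at 69.3, 70.4, 44.4 and 64.9 CPM in WT-RA and 114, 98.7 and 93.8 CPM in KO-RA (log2 fold change 0.72 ± 0.12, q = 0.00254). Classical and type II cadherins fell in 6 of 22 cases and rose in 1, with Cdh7 at 9.38, 9.97, 9.01 and 11.8 CPM in WT-RA and 3.38, 4.51 and 4.80 CPM in KO-RA (log2 fold change -1.25 ± 0.13, q = 0.000113). Of 57 clustered protocadherins none was called, and of 44 collagens 5 were lower (1 without GSD489) and 1 higher, a share of 13.6% against 10.4% of all genes.

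Of 35 genes of Wnt ligands and receptors, 5 were lower and 3 higher, with the receptor gene Fzd10 at 8.36, 4.12, 3.50 and 6.35 CPM in WT-RA and 0.594, 1.26 and 1.07 CPM in KO-RA (log2 fold change -2.51 ± 0.44, q = 0.00277). Of 29 genes of BMP signaling, 6 were lower and 3 higher. The ligand gene Bmp2 was at 4.62, 6.48, 6.57 and 6.13 CPM in WT-RA and 1.97, 2.80 and 1.92 CPM in KO-RA (log2 fold change -1.41 ± 0.18, q = 0.000293), and Smad7, an inhibitor of the pathway, was at 22.1, 17.3, 16.1 and 18.3 CPM in WT-RA and 10.2, 10.4 and 9.07 CPM in KO-RA (log2 fold change -0.90 ± 0.14, q = 0.000978). Of 9 neurotrophin and receptor genes, 2 were higher and 2 lower (0 lower without GSD489 or GSD496, and 1 without GSD401). Bdnf, a neurotrophin of excitatory neurons, was at 26.3, 28.6, 28.8 and 26.04 CPM in WT-RA and 48.4, 36.5 and 39.4 CPM in KO-RA (log2 fold change 0.59 ± 0.10, q = 0.00272) and Ntf3, which encodes neurotrophin-3, at 3.16, 2.85, 2.72 and 1.08 CPM in WT-RA and 6.17, 5.39 and 5.48 CPM in KO-RA (log2 fold change 1.21 ± 0.25, q = 0.00647). The neurotrophin receptor gene Ngfr, used by cholinergic neurons, was lower (log2 fold change -1.19 ± 0.37, q = 0.0552), with overlap between the groups.

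Of 22 neuropeptide genes, 7 were lower and 2 higher. Trh, which encodes thyrotropin-releasing hormone, was at 16.7, 7.71, 4.70 and 25.8 CPM in WT-RA and 0.483, 0.140 and 0.391 CPM in KO-RA (log2 fold change -5.34 ± 0.68, q = 0.000324). Tac1, which encodes substance P, was at 22.9, 27.3, 23.04 and 34.6 CPM in WT-RA and 10.5, 11.02 and 14.02 CPM in KO-RA (log2 fold change -1.18 ± 0.16, q = 0.000484). Of 14 immediate early genes, 3 were higher and 4 lower. Npas4, an activity-induced transcription factor of neurons, was at 17.8, 21.1, 26.8 and 20.1 CPM in WT-RA and 13.2, 11.3 and 7.58 CPM in KO-RA (log2 fold change -1.005 ± 0.23, q = 0.0137), and Fos was at 17.2, 19.5, 17.2 and 14.8 CPM in WT-RA and 12.8, 11.4 and 10.2 CPM in KO-RA (log2 fold change -0.58 ± 0.13, q = 0.0117). Fosl2, another member of the Fos family, was higher at 28.9, 33.2, 27.1 and 29.95 CPM in WT-RA and 47.6, 52.3 and 58.2 CPM in KO-RA (log2 fold change 0.82 ± 0.13, q = 0.00126), as was the orphan nuclear receptor gene Nr4a3 (log2 fold change 0.63 ± 0.15, q = 0.0138), whereas Dusp1, a phosphatase of MAP kinases, was lower (log2 fold change -0.69 ± 0.13, q = 0.00495). In none of these 5 genes did the groups overlap. This held for 8 of the 14 genes of the list, for 19.6% of all genes and for 1487 of the 1738 called genes. Of 16 hypoxia response genes 2 were lower, a share of 12.5% against the 10.4% of all genes, and 2 of 75 ribosomal protein genes and 0 of 37 nuclear complex I genes were called.

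Of the 13 protein genes of the mitochondrial genome, mt-Nd3 was the 1 that was called. This complex I subunit gene (chrM:9459-9806, GRCm38) was at 887, 721, 573 and 922 CPM in WT-RA and 142, 101 and 163 CPM in KO-RA (log2 fold change -2.52 ± 0.20, q = 1.79e-05), and had 1 of the 5 smallest p-values of all genes. The other 12 had positive estimates of 0.03 to 0.39 and were not called. Gm28438, which GENCODE annotates as an unprocessed pseudogene (chr1:24612775-24613119, minus strand, GRCm38), moved the opposite way, at 61.6, 150.0, 192 and 128 CPM in WT-RA and 924, 703 and 831 CPM in KO-RA (log2 fold change 2.63 ± 0.76, q = 0.0414). Over the 345 bases that the 2 reference transcripts share (GENCODE on GRCm38), they differ by 1 substitution, T3C, with mt-Nd3 given first and the position counted from 1 at the start of both transcripts. The mt-Nd3 transcript is 348 bases long and ends after the shared bases. The first 60 bases of both are shown because they hold the substitution, in capitals.
mt-Nd3: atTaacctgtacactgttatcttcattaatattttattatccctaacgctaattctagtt
Gm28438: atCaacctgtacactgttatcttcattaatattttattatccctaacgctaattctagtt

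Counts of such a pair are uncertain, since most of their sequence is shared, and how reads were divided between the 2 was not tested. Added together, mt-Nd3 and Gm28438 were at 948, 871, 764 and 1049 CPM in WT-RA and 1066, 804 and 994 CPM in KO-RA, and the groups overlapped. Gm10925 is a copy of mt-Atp6 on chromosome 1, with no mismatch over 678 bases. It was at 2.87, 1.13, 0.0353 and 0.0717 CPM in WT-RA and 126, 10.9 and 8.18 CPM in KO-RA (log2 fold change 5.56 ± 0.99, q = 0.00294), while the sum with mt-Atp6 was 9378 to 12789 CPM in WT-RA and 12523 to 15171 CPM in KO-RA. Of 8 tested genes that are known to differ between C57BL/6 substrains, 3 were lower. Entpd4 was at 56.2, 71.4, 66.3 and 76.1 CPM in WT-RA and 35.2, 35.9 and 35.3 CPM in KO-RA (log2 fold change -0.93 ± 0.15, q = 0.00177) and its near copy Entpd4b at 38.1, 52.2, 44.2 and 58.3 CPM in WT-RA and 26, 23.02 and 25.7 CPM in KO-RA (log2 fold change -0.95 ± 0.19, q = 0.0051), and reads of these 2 may be shared. Crb1, a retinal polarity gene that carries a mutation in some C57BL/6 lines, was at 1.20, 1.76, 0.671 and 2.40 CPM in WT-RA and 0.706, 0.455 and 0.569 CPM in KO-RA (log2 fold change -1.38 ± 0.41, q = 0.0449), with overlap. Nnt, a mitochondrial transhydrogenase gene, was at 4.36, 2.47, 1.94 and 0.861 CPM in WT-RA and 2.93, 4.34 and 2.49 CPM in KO-RA (log2 fold change 0.44 ± 0.47, q = 0.651) and was not called. Wdfy1 varied within WT-RA, at 36.1, 13.9, 51.7 and 34.3 CPM in WT-RA and 49.5, 46.8 and 51.1 CPM in KO-RA (log2 fold change 0.53 ± 0.37, q = 0.443). Whether the genotypes differed in substrain background was not tested.

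The remaining genes with the largest or most certain changes were of mixed function. Klk8, a protease that acts in hippocampal plasticity, was at 4.44, 5.53, 4.84 and 4.95 CPM in WT-RA and 13.3, 11.6 and 11.2 CPM in KO-RA (log2 fold change 1.28 ± 0.14, q = 0.000113). Ghsr, the ghrelin receptor gene, was at 0.909, 1.41, 0.530 and 0.251 CPM in WT-RA and 2.41, 2.13 and 2.06 CPM in KO-RA (log2 fold change 1.501 ± 0.35, q = 0.0144). DXBay18 was at 0.836, 1.69, 0.495 and 0.789 CPM in WT-RA and 3.05, 1.85 and 1.92 CPM in KO-RA (log2 fold change 1.25 ± 0.44, q = 0.0908). Among the falls, Trbc2, a constant segment of the T cell receptor β chain, was at 2.47, 7.96, 26.2 and 15.3 CPM in WT-RA and 0.520, 0.420 and 0.463 CPM in KO-RA (log2 fold change -4.79 ± 0.70, q = 0.000852), and its WT-RA values were widely spread, with GSD400 highest. Ramp3, which modifies the calcitonin receptor family, was at 37.2, 17.3, 17.6 and 18.9 CPM in WT-RA and 2.49, 3.36 and 3.81 CPM in KO-RA (log2 fold change -2.82 ± 0.40, q = 0.000717). The uncharacterized transcripts Gm45623 and Gm16867, both lower in KO-RA, differed by -4.24 ± 0.43 and -4.03 ± 0.63. Beside mt-Nd3 and Coch, the smallest p-values were those of 3 further genes. Esrrg, an orphan nuclear receptor gene, was at 33.9, 29.9, 27.8 and 34.4 CPM in WT-RA and 13.1, 12.7 and 14.02 CPM in KO-RA (log2 fold change -1.25 ± 0.10, q = 1.79e-05). Cldn12, which encodes a claudin of tight junctions, was at 51.9, 49.2, 53.1 and 50.6 CPM in WT-RA and 30.8, 27.9 and 30.1 CPM in KO-RA (log2 fold change -0.79 ± 0.06, q = 1.79e-05), and Olfm3, which encodes a secreted olfactomedin, was at 60.6, 55.97, 48.02 and 57.2 CPM in WT-RA and 24.6, 25.3 and 29.9 CPM in KO-RA (log2 fold change -1.06 ± 0.09, q = 3.11e-05).

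**Figure D4:**
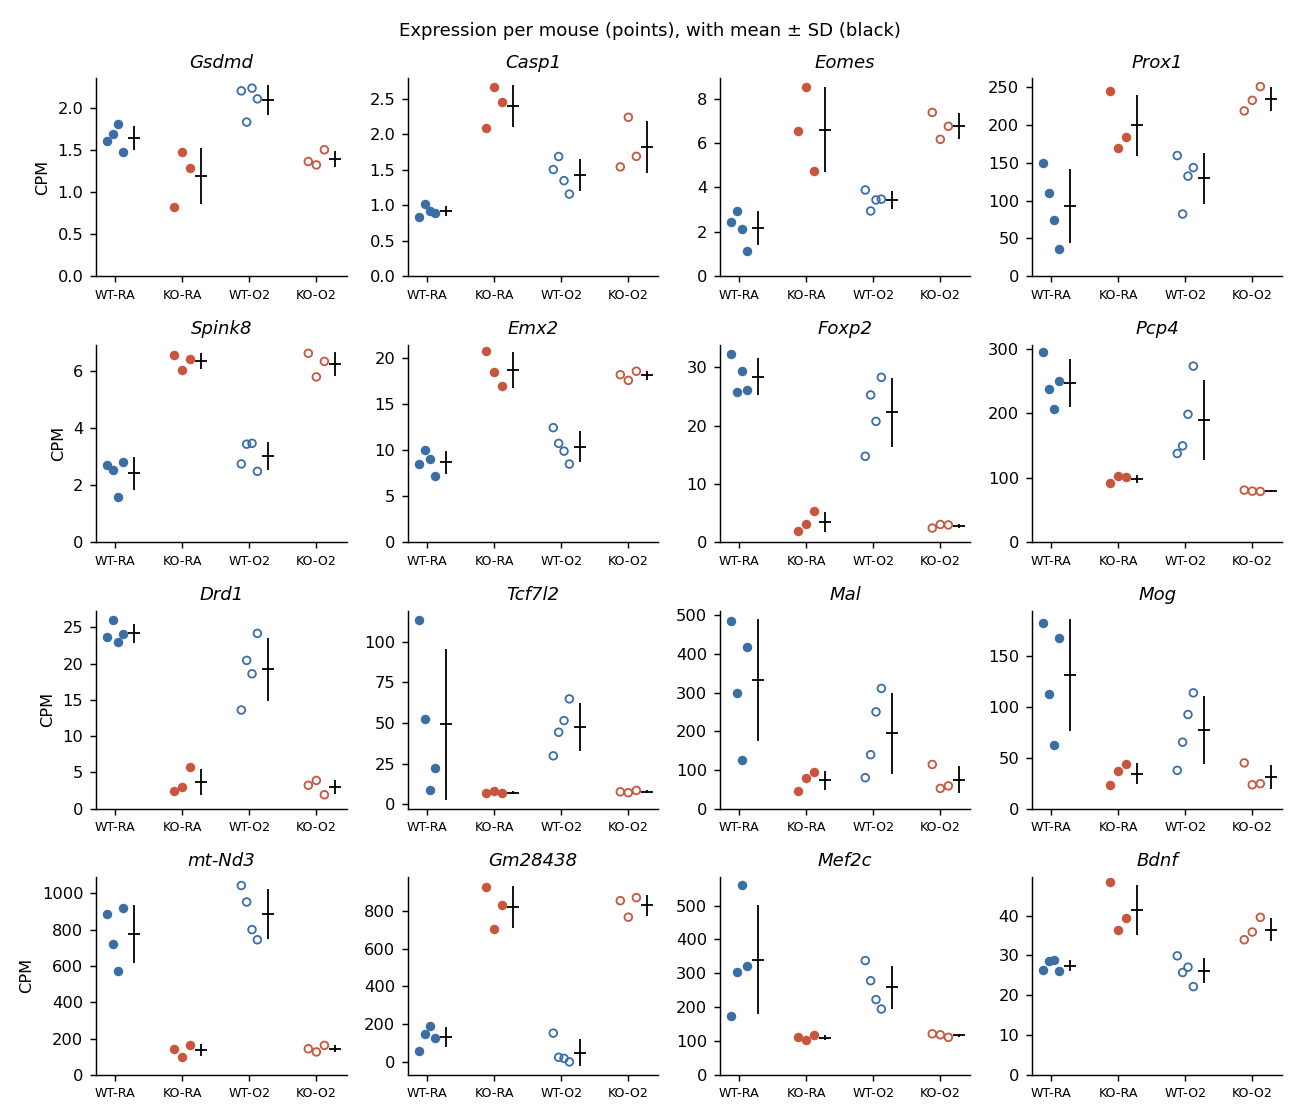
Expression of 16 genes in each mouse of the 4 groups (vertical axis CPM, 1 point per mouse, filled for room air and open for hyperoxia, blue WT and red KO), with mean ± SD in black. Casp1, Eomes, Spink8, Emx2 and Gm28438 are higher and Foxp2, Drd1 and mt-Nd3 lower in every KO-RA mouse than in any WT-RA mouse, and Tcf7l2 shows WT-RA mouse GSD400 just above the KO-RA mice. Gm28438 was named only by a rule that required no overlap. Casp1, Eomes, Spink8 and Foxp2 were picked by that rule too, besides being leading called members of their lists.

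The genotype difference was also read in the mice kept in hyperoxia, which share no mouse with the room air groups. KO-O2 vs WT-O2 called 1142 genes (6.86%), 418 higher (2.51%) and 724 lower (4.35%). Of the 1738 genes called in room air, 1679 (96.6%) had an estimate of the same sign in hyperoxia, against 70.7% of all genes tested. The 755 genes called in both are 43.4% of those called in room air and 66.1% of those called in hyperoxia. The test of the difference between the 2 exposures, the interaction of genotype and exposure, called no gene (0 of 16637 by edgeR and 0 by DESeq2), with 673 genes (4.05%) at an unadjusted p below 0.05. Medians were -1.74 in hyperoxia against -1.83 in room air for the striatal list, -1.09 against -1.56 for the myelin list and 0.45 against 0.81 for the dentate list. In hyperoxia, 16 of 16 striatal, 8 of 16 myelin and 2 of 10 dentate markers were called. Gsdmd had a log2 fold change of -0.58 in hyperoxia (q = 0.0962) and there passed the threshold. For Casp1 the log2 fold change was 1.38 in room air and 0.36 in hyperoxia, with an interaction p of 0.00193 before adjustment and a q of 1. For mt-Nd3 the values were -2.52 and -2.62, for its near copy Gm28438 2.63 and 4.03, and for Foxp2 -3.03 and -2.97.

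**Figure D5:**
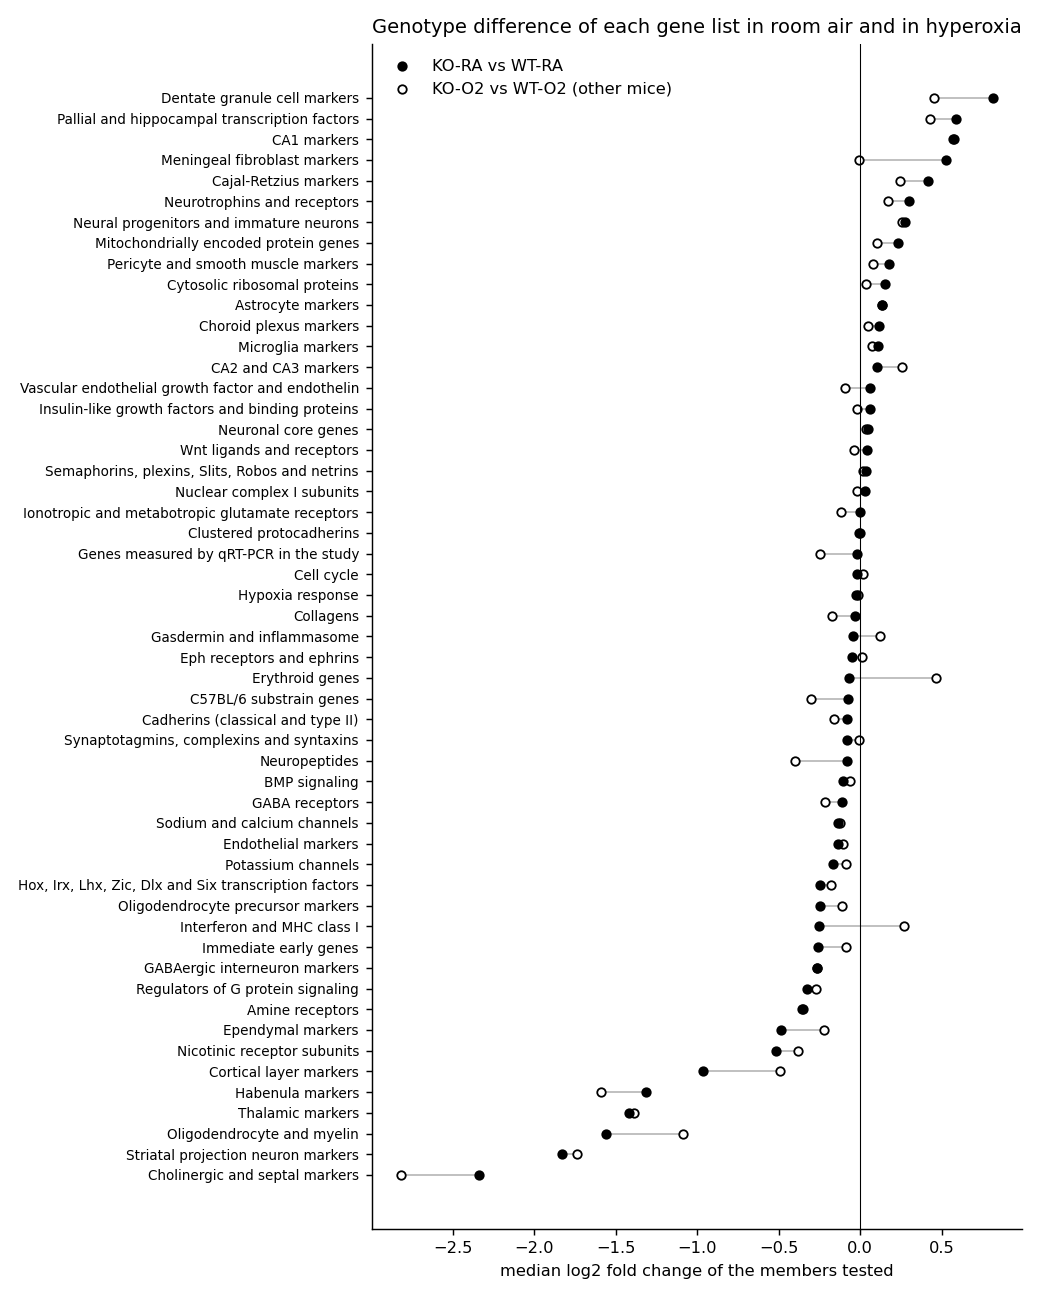
Median log2 fold change of KO against WT over the tested members of each gene list (horizontal axis), in room air (filled) and in hyperoxia (open, other mice). The cholinergic, striatal, myelin, thalamic and habenula lists lie below -1 in both exposures, and the dentate, pallial and CA1 lists are above 0.4 in both.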

How the data were processed

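Hippocampal RNA was sequenced by the study as 1 library per mouse. The deposited values are estimated counts per gene that the authors made with kallisto on GRCm39 and, per the labels, analysed with DESeq2. They were used as deposited and rounded to whole numbers. Genes were kept by edgeR's filterByExpr, library sizes were scaled by TMM, and all 14 libraries were fitted with 1 coefficient per group in edgeR 4.0.16 (R 4.3.3), with the quasi-likelihood F-test and Benjamini-Hochberg adjustment. Calls required p below 0.05, q below 0.1 and a fold change of 1.25 or more. DESeq2 1.42.0, other scalings, filters, thresholds and covariates, and the omission of each mouse were alternatives. Marker lists and gene families were chosen with earlier results of these data known. Genes named are those with the largest changes or smallest p-values, the leading called members of each list and the genes of the study's qRT-PCR, except where said otherwise. The genes with the largest changes were taken only from called genes with a mean of at least 1 CPM and no overlap between the groups. For genes named by that rule alone, the lack of overlap is therefore not a result. Each library is labelled as a separate mouse, so p-values measure the spread between mice. The edgeR step was tested on simulated data. Some genes are not reported here. Promoters were taken from RefSeq and transcripts from GENCODE.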

Additional observations from a re-analysis of the deposited data

Results flagged for a closer look

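In 177 values tested among the 4 WT-RA mice, 11 (6.21%) had 1 mouse far from the other 3 by Dixon's test, which chance gives in about 1 in 20. Of these, 8 concerned mouse GSD401. Its level was the lowest for the dentate marker Lct (3.98 CPM), the newborn neuron genes Igfbpl1 (4.20 CPM) and Sox11 (20.3 CPM) and the CA2 gene Rgs14 (32.6 CPM). Among summed lists, GSD401 was lowest for the erythroid genes (279 CPM) and the semaphorin, plexin, Slit, Robo and netrin genes (3076 CPM), and highest for the nuclear complex I genes (2434 CPM) and the Y-linked genes (114 CPM). Mouse GSD398 was lowest for the subplate gene Ccn2 (18.4 CPM) and highest for Ramp3 (37.2 CPM), and GSD400 was lowest for the astrocyte gene Gfap (214 CPM).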

How the results depend on the processing

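No paired analysis was possible because the labels give the WT-RA and KO-RA mice no shared replicate numbers. The 1738 calls in KO-RA vs WT-RA became 942 at a fold change of 1.5 (261 higher and 681 lower) and 23 with the striatal and thalamic scores as covariates (5 higher and 18 lower), and ranged from 1320 to 1840 under the other settings that kept all 7 mice. Leaving out 1 mouse gave 1076 to 1929 calls, 415 to 683 higher and 661 to 1246 lower, with the lowest counts without GSD489. Of 2220 results of 111 named called genes under 20 settings, 2025 were called in the same direction, 174 were not called and 21 changed sign. All 21 did so with the 2 scores as covariates, where the estimates were Scrib 0.0404, Sox11 -0.0643, Pou3f1 -0.0696, Drd2 0.52, Chat 0.0546, Slc18a3 1.03, Slc32a1 0.0658, Dlx6 0.39, Mal 0.47, Mog 0.30, Ermn 0.26, Ugt8a 0.11, Mobp 0.51, Opalin 0.76, Enpp6 0.11, Bcas1 0.33, Gpr17 0.0941, Nr4a3 -0.13, Ngfr 0.93, Gm28438 -1.62 and Scn4b 0.74. The striatal score itself separates the genotypes, and the cause of the changes was not tested. Pou3f1, DXBay18 and Txnip lost the call in 6 of the 7 fits without 1 mouse, Tnnt1 and Synpo2 in 4, and Scrib, Ngfr and Crb1 in 3. Beside the lists that depend on GSD489, counts moved by more than 1.5 times for higher potassium channel genes (8 without GSD400, 3 without GSD401), lower sodium and calcium channel genes (7 without GSD496), lower Eph and ephrin genes (2 without GSD399 or GSD496), lower collagens (3 without GSD496) and lower immediate early genes (2 with GSD408 as room air). Of lists with 2 or 3 calls in a direction, the count without GSD489 was 1 for lower pallial factors, higher nicotinic subunits and higher synaptotagmin and related genes, and 5 for higher ribosomal protein genes. It was 1 for lower GABA receptors without GSD490, 4 for higher glutamate receptors without GSD400 or GSD490, 5 for higher Wnt genes without GSD400, 1 for higher neuropeptides without GSD490 or GSD496, and 1 for lower habenula markers without GSD398. Higher ribosomal protein genes ranged from 1 to 5 over the mice left out. The interaction called 0 genes in every setting run. Depth limits genes at 1 or 2 counts per mouse, such as Chat in KO-RA.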

Other observations

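Calls in further gene families were as follows. Of 25 tested homeobox and zinc finger factors that pattern the brain (the Irx, Lhx, Zic and Dlx families and their like), 6 were lower (3 without GSD489 or GSD496) and 1 was higher. Of 34 synaptotagmin, complexin and syntaxin genes 6 were lower and 2 higher. The shares called were 28% and 23.5%, both above the 10.4% of all genes. Of 15 genes of vascular endothelial growth factor and endothelin signaling, 2 were higher, Nrp1 and Nrp2, and 1 was lower, a share of 20% against the 10.4% of all genes. Of 10 genes of insulin-like growth factors and their binding proteins, 1 was lower (10%). Of 14 interferon and MHC class I genes 1 was higher (7.14%), and of 6 erythroid genes 1 was higher (16.7%). Apart from the homeobox and zinc finger factors and the synaptotagmin group, these shares lie near that of all genes or rest on few genes.

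With the striatal and thalamic marker scores as covariates, which themselves separated the genotypes for the striatal list, 23 genes were called, 18 of them also called without the scores. St6gal2, a sialyltransferase gene, had a log2 fold change of -1.10 with the scores and -0.76 without. Mef2c had -2.46 with the scores, Trbc2 -6.17 and mt-Nd3 -2.41. Thrsp, a regulator of lipid synthesis, was higher by 1.69 with the scores and 0.88 without. St6gal2 and Thrsp were chosen after their values were seen.

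Of the named genes, Fosl2, Casp1, Dcn and Gabra2 had the smallest unadjusted p in the test of the difference between exposures, and none of them passed the correction. Dcn had a log2 fold change of 1.47 in room air and -0.19 in hyperoxia, Fosl2 had 0.82 and 0.05, and Gabra2 had 1.03 and 0.24. Their adjusted p in edgeR was 1 each. Across chromosomes, 8.13% to 13.5% of tested genes were called in KO-RA vs WT-RA.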
